A study of Mus musculus with 2 samples.

Results

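Hematopoietic stem cells were picked out of mouse bone marrow libraries by the transcripts they carry. Cells were taken as barcodes that carried 1000 or more unique molecular identifiers (UMIs, each standing for 1 captured transcript) from 500 or more genes, with no more than 10% of them mitochondrial. Of these called cells, stem cells were chosen by their measured UMI counts: a UMI of at least 2 of the 7 stem cell genes Hlf, Mecom, Procr, Slamf1, Hoxb5, Fgd5 and Tcf15, and 0 UMIs of the 5 genes Mpo, Elane, Klf1, Car1 and Dntt, which mark granulocyte, erythroid and lymphoid progenitors. The gate held 211 of 23283 called cells, 86 of 11932 in FMT_young and 125 of 11351 in FMT_aged. These 12 genes chose the cells, so their levels in the gate are a description.

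FMT_young is a library from the bone marrow of aged C57BL/6J mice transplanted with the gut microbiota of young donors, and FMT_aged one from aged C57BL/6J mice transplanted with that of aged donors. Fecal microbiota transplantation moves the gut community of a donor into a recipient, and the comparison asks how the age of that community bears on the marrow of aged recipients. Whole marrow, sorted cells without lineage markers and sorted cells without lineage markers but with Kit went into each library at 1 to 1 to 4, made with the 10x Genomics Chromium 3' kit, which counts UMIs near the 3' end of transcripts. There was 1 library per group, no recipient without a transplant was analysed here, and the labels give neither the ages in months nor how many mice each library holds. No test between the groups was therefore possible, and all values compare these 2 libraries. Levels are UMIs of a gene summed over the gated cells as counts per 1e6 UMIs of those cells (CPM). Every ratio between the libraries is a log2 ratio with FMT_young on top, and its 95% interval covers counting error only.

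Hematopoietic stem cells sit at the top of the blood hierarchy, where they renew themselves and give rise to multipotent progenitors and through these to every blood lineage. Most of them are out of the cell cycle in the adult marrow, held there by niche signals such as Kit ligand through Kit. With age the pool of stem cells in mice grows, leans to myeloid and platelet output and takes on its own set of transcripts, the adhesion gene Selp and the platelet gene Vwf among them.

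A lower share of FMT_young than of FMT_aged cells passed the gate, but the shares were close when the gate was applied to thinned cells. Gated cells were 0.721% of called cells in FMT_young (exact Clopper-Pearson interval 0.577 to 0.889%) and 1.10% in FMT_aged (0.917 to 1.31%), a log2 ratio of -0.61 (-1.02 to -0.20). With each cell thinned to 2000 UMIs before the gate was applied, 113 of 11134 cells passed in FMT_young and 110 of 10772 in FMT_aged, shares of 1.01% and 1.02% and a ratio of -0.01. Thinning also changes which cells pass. It left no UMI of an excluded gene in 32.0% of FMT_young and 31.8% of FMT_aged cells that these genes had turned away. Of 16 alternative settings, 15 kept the share ratio within its counting interval, among them a minimum of 2000 UMIs without thinning (-0.59). How far depth enters the share ratio was not tested. Among Kit-positive cells, here all called cells with a Kit UMI, the gate took 67 of 5620 in FMT_young and 96 of 6032 in FMT_aged (1.19% and 1.59%, a ratio of -0.42 with an interval of -0.89 to 0.05). The sort mix sets the share of progenitors in each library, so none of these shares is a frequency in the marrow.

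Most cells with stem cell transcripts were turned away by the granule genes. At least 2 of the 7 stem cell genes were seen in 719 FMT_young and 866 FMT_aged cells, and 633 and 741 of these also had a UMI of an excluded gene. Mpo, the myeloperoxidase of granulocyte progenitors, was present in 558 and 649 of them, Elane, neutrophil elastase, in 475 and 522, and Dntt, the terminal transferase of lymphoid progenitors, in 98 and 125. The erythroid genes turned away few cells, Klf1 10 in FMT_young and 19 in FMT_aged and Car1 1 and 0. Mpo and Elane were also present in the free RNA, measured in barcodes with under 100 UMIs, at 5553 and 5249 CPM in FMT_young and 6132 and 4781 CPM in FMT_aged. A single UMI of the 5 genes together kept 112 FMT_young and 134 FMT_aged cells out, and over 5 UMIs kept 342 and 366 out. Gated cells were shallow, with a median of 5611.5 UMIs in FMT_young and 6146 in FMT_aged, against 12840 and 13140 in the cells turned away. Just below the marker threshold, 69 FMT_young and 90 FMT_aged cells had 1 stem cell gene and no excluded gene, and just above it 45 and 72 had exactly 2.

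Hlf and Mecom, transcription factors that stem cells need to renew themselves, carried the gate. Hlf (ENSMUSG00000003949, chr11:90336536-90390895, GRCm38) was detected in 90.7% of gated FMT_young and 92% of gated FMT_aged cells, at 640.0 and 500.3 CPM. Mecom (ENSMUSG00000027684, chr3:29951296-30548008) was detected in 86.0% and 84.8%, at 284 and 267 CPM. The protein C receptor gene Procr followed with 39.5% in FMT_young and 36% in FMT_aged, at 100.4 and 74.2 CPM. Slamf1, the gene of the surface protein CD150 used to sort stem cells, had 22 UMIs in FMT_young and 17 in FMT_aged, in 17.4% and 11.2% of gated cells. The transcription factor genes Hoxb5 (10.5% and 13.6%) and Tcf15 (10.5% and 12%) and the guanine exchange factor gene Fgd5 (6.98% and 13.6%) were seen in few cells, and their counting intervals in the plot of marker shares overlap. At 2000 UMIs per cell Hlf was left in 60.5% of FMT_young and 60.8% of FMT_aged gated cells, against 1.93% and 1.47% of cells rich in the neutrophil genes S100a8 and S100a9. Since Hlf helped to choose the gated cells, this contrast is a description and no support for the gate. Hlf with Mecom and no other of the 7 was the commonest set, in 28 FMT_young and 47 FMT_aged cells.

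**Figure D1:**
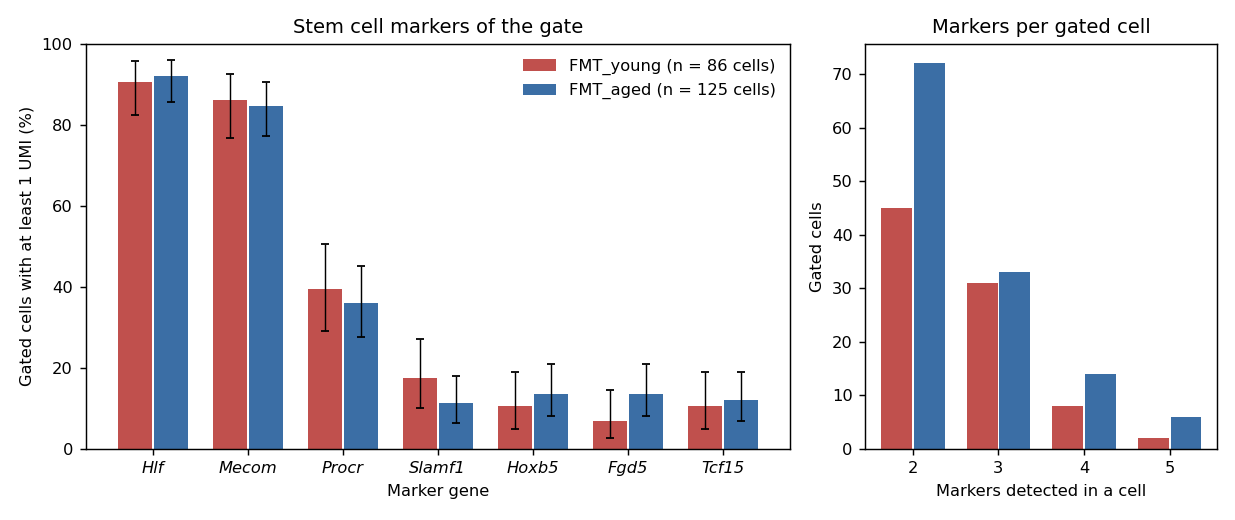
Left, the percent of gated cells with at least 1 UMI of each stem cell gene used by the gate, in FMT_young (86 cells) and FMT_aged (125 cells), with exact 95% counting intervals. Right, the number of gated cells by how many of these genes they carried. Hlf and Mecom were found in over 84% of cells of both libraries, and most cells carried 2 or 3 of the genes.

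The gated cells had the transcripts of stem cells beyond the genes that chose them. They were set against the other Kit-positive cells, 5553 in FMT_young and 5936 in FMT_aged. Of 3145 genes above a count minimum, 18.9% were at least 2-fold higher in the gated cells of both libraries and 4.74% at least 2-fold lower. This minimum was set on UMIs of the gated cells alone, so genes scarce in the gate and abundant outside it were left out. That favours genes higher in the gate. The other Kit-positive cells were deeper, with medians of 22919 UMIs in FMT_young and 22687.5 in FMT_aged. Of 40 stem cell genes kept out of the rule, 28 passed that minimum and each of these was at least 2-fold higher in both, with median log2 ratios of 3.50 in FMT_young and 3.28 in FMT_aged. The medians over all genes were 0.24 and 0.27. By the lower counting bound of the 2 libraries, Tgm2, a transglutaminase gene, led with log2 ratios of 5.86 in FMT_young and 6.12 in FMT_aged, at 81.4 and 94.2 CPM in gated cells and 1.41 and 1.35 CPM in other Kit-positive cells. Mmrn1, the multimerin of platelets and endothelium, had 6.16 and 5.48, and the ubiquitin ligase gene Trim47 6.02 and 5.43. The adhesion gene Esam (5.57 and 5.2), the membrane protein gene Pdzk1ip1 (5.56 and 5.02), the imprinted long noncoding RNA gene Meg3 (5.54 and 5.40), the calcium channel gene Trpc6 (5.59 and 5.2) and the lectin gene Clec1a (5.43 and 5.12) were also among the 15 leading genes. So were the transcription factor genes Creb5 (5.31 and 5.36) and Nkx2-3 (4.77 and 5.18), the retinaldehyde dehydrogenase gene Aldh1a1 (5.32 and 4.68), the stress gene Nupr1 (5.14 and 4.87), the sulfotransferase gene Sult1a1 (4.79 and 4.40) and the myosin light chain gene Myl10 (4.63 and 4.52). Outside the leading 15, the homeobox cofactor gene Meis1 stood at 534 CPM in FMT_young and 509.8 in FMT_aged gated cells (3.99 and 3.73).

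**Figure D2:**
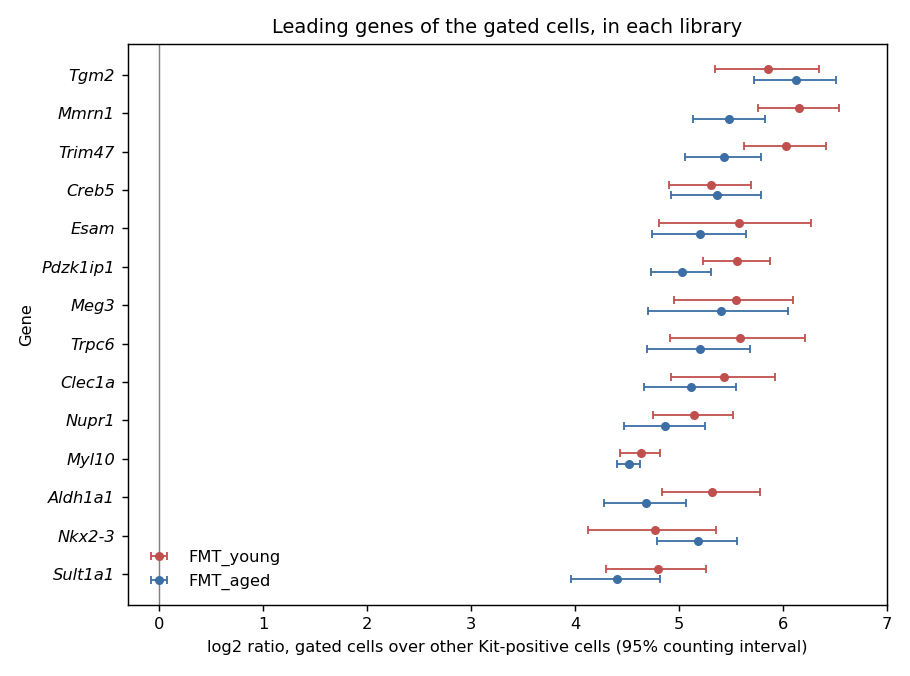
The log2 ratio of gated cells over other Kit-positive cells for leading genes outside the gate, with 95% counting intervals, in FMT_young (upper point of each pair) and FMT_aged (lower point). Every gene shown lies above a ratio of 4 in both libraries.

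Most measured genes of old stem cells, platelets and type I interferon and immediate early responses were at least 2-fold higher than in the other Kit-positive cells in both libraries, as were 18.9% of all genes that passed the minimum set in the gate. Of 16 measured genes known to be higher in stem cells of old mice, 13 were at least 2-fold higher in gated cells of both libraries (medians 2.66 in FMT_young and 2.63 in FMT_aged), and 1, the metallothionein gene Mt1, at least 2-fold lower. Of 10 megakaryocyte genes 8 were at least 2-fold higher, among them Selp (3.50 in FMT_young and 2.78 in FMT_aged) and the platelet chemokine gene Pf4 (4.22 and 3.00), of which 1 cell held 27 of 58 UMIs in FMT_young and 47 of 75 in FMT_aged. Of 14 type I interferon response genes 10 were at least 2-fold higher, of 21 interferon gamma response genes 7, and of 32 immediate early genes 27. No S phase gene of 11 was 2-fold higher and 3 were 2-fold lower, and of 15 G2 and M phase genes 4 were lower. Nuclear genes of oxidative phosphorylation, the mitochondrial respiratory chain, were 2-fold lower for 8 of 41, with medians of -0.82 in FMT_young and -0.74 in FMT_aged. Myeloid genes were 2-fold lower for 6 of 7, a direction that the rule favours, since it removed cells with Mpo and Elane. Per cell at 2000 UMIs, gated cells with at least 3 of the G2 and M phase genes made up 47.7% in FMT_young and 36.8% in FMT_aged, against 77.6% and 79.9% of other Kit-positive cells, drawn at random up to 1500 per library.

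Most marker lists of other cell types summed to a low level in the gated cells, but dendritic, endothelial and stromal sums were above those of other Kit-positive cells, and 1 cell in each library was rich in antibody transcripts. Of 10 stromal genes 9 were at 0 in both libraries, Cxcl12, Lepr and Col1a1 among them, and the remaining Col1a2 had 7 UMIs in FMT_young and 16 in FMT_aged (13.3 and 18.8 CPM, against 0.639 and 0.666 CPM for the list in other Kit-positive cells). Mast and basophil genes summed to 18 and 24 UMIs (34.1 and 28.3 CPM, against 247 and 301 CPM in other Kit-positive cells), with 5 and 7 of 11 at 0, and T, NK and innate lymphoid genes to 121 and 171 CPM, against 737 and 766, with 4 of 12 at 0 in each. Monocyte and macrophage genes summed to 223 CPM in FMT_young and 323 in FMT_aged, against 2801 and 2343 in other Kit-positive cells, with 8 and 5 of 12 at 0 and the C1q genes and Adgre1 at 0 in both. Neutrophil genes summed to 329 and 200.1 CPM, against 15458 and 8013. The rule favours low sums of such myeloid genes, since it removed cells with Mpo and Elane. Of the endothelial genes Cdh5 and Stab2 were at 0, while Pecam1, Egfl7, Tie1 and Eng, which stem cells also express, made up most of the 320.0 CPM in FMT_young and 345 in FMT_aged, against 84.5 and 104 CPM in other Kit-positive cells. B cell and plasma cell genes summed to 814 and 1146 CPM, against 1958 and 1247 in other Kit-positive cells, most of it Jchain, of which 1 cell held 291 of 318 UMIs in FMT_young and 683 of 706 in FMT_aged. In these cells immunoglobulin genes took 52.7% and 24.5% of UMIs, against at most 0.457% and 4.07% in any other gated cell. A doublet score also marked 1 gated cell in each library. With the marked cells removed 3336 genes passed the count minimum, and with the antibody-rich cells removed 3343. The marked cells were therefore not all the antibody-rich ones. Dendritic cell genes, among which are class II genes and Flt3, summed to 725 CPM in FMT_young and 729 in FMT_aged gated cells, against 528 and 663 in other Kit-positive cells. At least 3 of them were seen in 29 FMT_young and 43 FMT_aged gated cells, with 5 and 4 of 11 at 0 and Siglech, Cd209a and Xcr1 at 0 in both. Of 34 barcodes called in both libraries, 0 were gated.

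The gate was not uniform, and cells with more stem cell genes had less of the transcripts of multipotent progenitors. The counts of cells with 2, 3 and 4 or more of the genes were 45, 31 and 10 in FMT_young and 72, 33 and 20 in FMT_aged. Across these steps Trim47 was at 82.4, 135 and 346 CPM in FMT_young and 50.9, 88.5 and 250.3 CPM in FMT_aged. Flt3, the receptor that appears as stem cells turn into lymphoid-primed progenitors, went the other way, with 71.7, 27.0 and 0 CPM in FMT_young and 136, 53.1 and 39.5 CPM in FMT_aged. Cdk6, the kinase that sets how fast stem cells leave quiescence, was at 516, 426 and 31.4 CPM in FMT_young and 592, 403 and 145 CPM in FMT_aged. Summed genes of old stem cells were at 1835, 2501 and 4340 CPM in FMT_young and 1573, 2283 and 2997 CPM in FMT_aged. Summed stem cell genes outside the rule were at 7601, 8792 and 11997 CPM in FMT_young and 7962, 8868 and 10544 CPM in FMT_aged. Not every stem cell gene rose as Trim47 did. Meis1 was at 495, 582 and 566 CPM in FMT_young and 524, 513 and 461 CPM in FMT_aged. The uppermost step rests on few cells, 10 and 20, and the gate's own genes define the steps.

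Between the libraries, gated cells of FMT_young had more transcript of immediate early genes, and less of several G2 and M phase genes and of Myl10. A count minimum of 30 UMIs summed over both libraries and 50 CPM in the higher one left 3302 genes, from 528142 UMIs in FMT_young and 849408 in FMT_aged gated cells, of which 76 (2.3%) were at least 2-fold higher in FMT_young and 56 (1.7%) at least 2-fold lower. The ratio was above 0 for 37.8% and below 0 for 62.2% of genes, with a median of -0.10. With that median set to 0, 96 genes were at least 2-fold higher and 39 lower. The counting interval lay above 0 for 7.87% of genes and below 0 for 10.8%.

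Immediate early genes were higher in FMT_young almost throughout. These genes need no new protein for their induction, so their transcripts appear quickly after many kinds of stimulus, cell handling included, and decay quickly. The list of these genes was written with earlier results of these data known. Of 38 listed genes 32 passed the count minimum, with a median ratio of 1.05, against -0.10 over all genes. Of the 32, 31 were higher in FMT_young (37.8% of all genes were) and 20 at least 2-fold higher (2.3% of all genes). The counting interval lay above 0 for 29 and below 0 for 0, and Dusp6, an ERK phosphatase, was the exception with 134 CPM in FMT_young and 137 in FMT_aged (-0.02, -0.47 to 0.42). Klf2 (ENSMUSG00000055148, chr8:72319033-72321656, GRCm38), a Krüppel-like transcription factor of quiescent lymphocytes and of endothelium under flow, had 2658 CPM in FMT_young, against 329.6 in FMT_aged (3.01, 2.83 to 3.20), from 84 of 86 and 88 of 125 cells. Nr4a1 (ENSMUSG00000023034, chr15:101254269-101274795), an orphan nuclear receptor that restrains stem cell division, had 485 and 89.5 CPM (2.44, 2.06 to 2.83) from 54 and 34 cells. Btg2 (ENSMUSG00000020423, chr1:134075170-134079120), an antiproliferative gene, had 708 CPM in FMT_young and 220.2 in FMT_aged (1.69). The Krüppel-like factor gene Klf6 had 2138 and 728 CPM (1.55), Ier2 1634 and 562 (1.54), and the small GTPase gene Rhob 1157 and 389.7 (1.57). Maff, a small Maf transcription factor gene, rested on 49 and 17 UMIs (2.21, 1.39 to 3.1). When the cells with excluded genes were let in, the ratio of Klf2 was 2.33 and that of Maff 1.10. The AP-1 and Egr genes, picked out here after their values were seen, were the most abundant of the list, with Jun at 2456 UMIs in FMT_young and 2105 in FMT_aged (0.91), Fos at 2273 and 1787 (1.03), Fosb at 1716 and 1376 (1.00) and Egr1 at 1493 and 879 (1.45).

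The promoters of 3 of these genes, the 2 with the largest ratios and the antiproliferative Btg2, are shown for the motifs that a search found in them. They are 250 bases before the RefSeq start (GRCm38.p6), written 5′ to 3′ on the gene's strand, at chr8:72318812-72319061 (plus strand) for Klf2, chr15:101266596-101266845 (plus) for Nr4a1 and chr1:134079156-134079405 (minus) for Btg2. Capitals mark TGACG on either strand, the core of the site of cyclic AMP response element binding proteins, its full form TGACGTCA, which contains that core on both strands, and the MEF2 site.
Klf2: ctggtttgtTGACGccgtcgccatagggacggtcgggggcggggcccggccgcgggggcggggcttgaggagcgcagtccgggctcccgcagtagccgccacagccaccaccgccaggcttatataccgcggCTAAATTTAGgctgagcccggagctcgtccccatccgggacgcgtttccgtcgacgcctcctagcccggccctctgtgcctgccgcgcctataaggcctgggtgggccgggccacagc
Nr4a1: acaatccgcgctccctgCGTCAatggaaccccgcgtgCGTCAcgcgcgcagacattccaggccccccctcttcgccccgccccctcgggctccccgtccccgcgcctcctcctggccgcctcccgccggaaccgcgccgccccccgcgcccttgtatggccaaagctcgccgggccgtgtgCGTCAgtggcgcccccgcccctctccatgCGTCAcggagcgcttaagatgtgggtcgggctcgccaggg
Btg2: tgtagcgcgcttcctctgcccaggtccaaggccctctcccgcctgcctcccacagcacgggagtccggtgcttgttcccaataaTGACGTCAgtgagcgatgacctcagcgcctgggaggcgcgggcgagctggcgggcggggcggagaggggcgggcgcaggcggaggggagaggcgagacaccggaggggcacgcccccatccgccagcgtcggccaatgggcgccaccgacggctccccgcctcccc
Of the immediate early genes that passed the count minimum, 29 had a window in the RefSeq promoter set used. TGACG on either strand was found in 16 of these 29 (55.2%), and in 19.8% of all 27025 genes with a window. Those 27025 genes were not limited to genes that passed the count minimum. TGACGTCA was found in 4 of 29 (13.8%) against 1.77%, the MEF2 site in 4 (13.8%) against 0.592%, the CArG box of serum response factor in 2 (6.90%) against 1.62%, and the AP-1 site TGANTCA in 2 (6.90%) against 7.82%. Klf6 and Rhob, also among the leading genes, had none of the 5 motifs in their windows. A match of letters does not show binding.

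The difference was spread over the gated cells rather than held by a few of them. With each gated cell thinned to 2000 UMIs, the listed genes together had a median of 79.5 UMIs per cell in FMT_young (range 16 to 144) and 32 in FMT_aged (1 to 94). Other Kit-positive cells had medians of 18 and 10. Klf2 was detected in 90.7% of thinned FMT_young and 40.8% of thinned FMT_aged gated cells, Nr4a1 in 50% and 12%, and Egr1 in 94.2% and 69.6%. These genes are broadly expressed, and the thinned share with Klf2 was 52.8% and 22.3% in other Kit-positive cells. The unthinned shares in the gate were 97.7% and 70.4% for Klf2, 62.8% and 27.2% for Nr4a1 and 98.8% and 83.2% for Egr1.

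**Figure D3:**
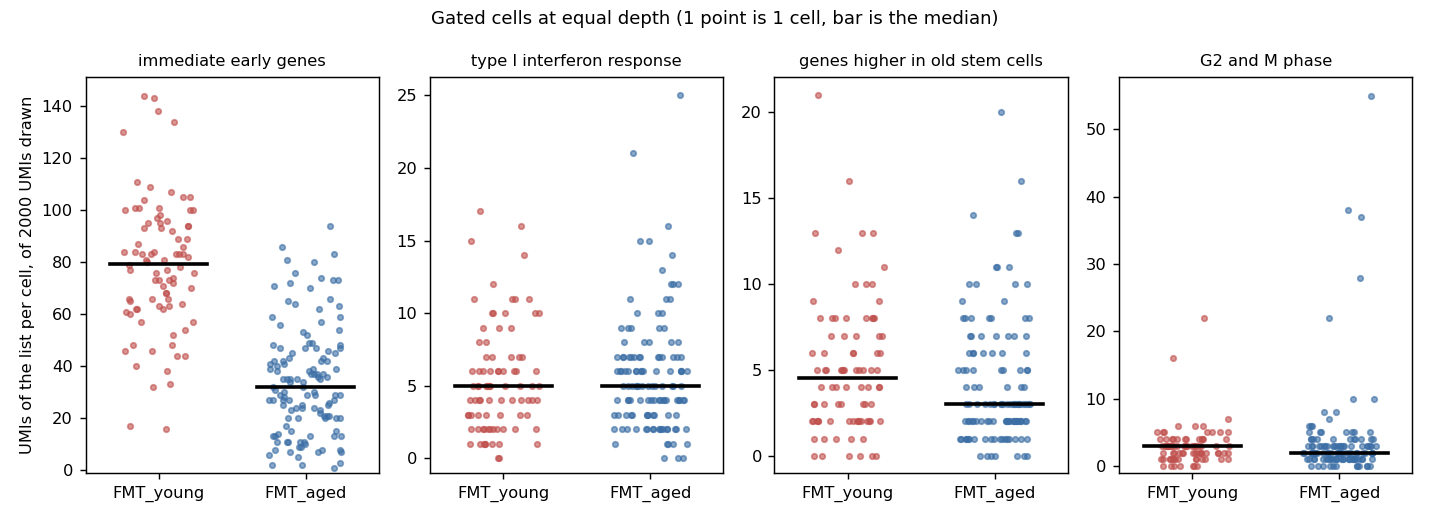
UMIs of 4 gene lists per gated cell after each cell was thinned to 2000 UMIs, with 1 point per cell and a bar at the median, FMT_young left of FMT_aged in each panel. Immediate early genes have medians of 79.5 and 32, type I interferon genes 5 and 5, genes of old stem cells 4.5 and 3, and G2 and M phase genes 3 and 2, where a few FMT_aged cells reach up to 55.

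The same direction was seen outside the gate and in free RNA. The median ratio of the 32 immediate early genes was 0.90 in cells with stem cell genes and an excluded gene, 0.83 in cells with Flt3 and Dntt, 0.79 in other Kit-positive cells, 0.77 in Kit-negative cells and 0.69 in free RNA, against 1.05 in the gate. These sets overlap. Other Kit-positive cells included 539 of 633 FMT_young and 655 of 741 FMT_aged cells of the first set. They also included 209 of 331 FMT_young and 347 of 501 FMT_aged cells with Flt3 and Dntt. For Nr4a1 the ratios ran from 1.88 in free RNA to 2.62 in Flt3 and Dntt cells, with 2.44 in the gate. Klf2 had its highest ratio of the sets in the gate, 3.01, with 2.05 in other Kit-positive cells and 1.58 in free RNA. Free RNA held Klf2 at 677 CPM in FMT_young and 226 in FMT_aged. A list of 3 genes kept as ribosomal RNA locus reads, the protein-coding gene Lars2 among them, served as a measure of library quality. This list also differed in every set, with median ratios of -1.47 in the gate, -1.12 in other Kit-positive cells and -1.39 in free RNA. How far a difference between the whole libraries enters the ratios in the gate was not tested.

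**Figure D4:**
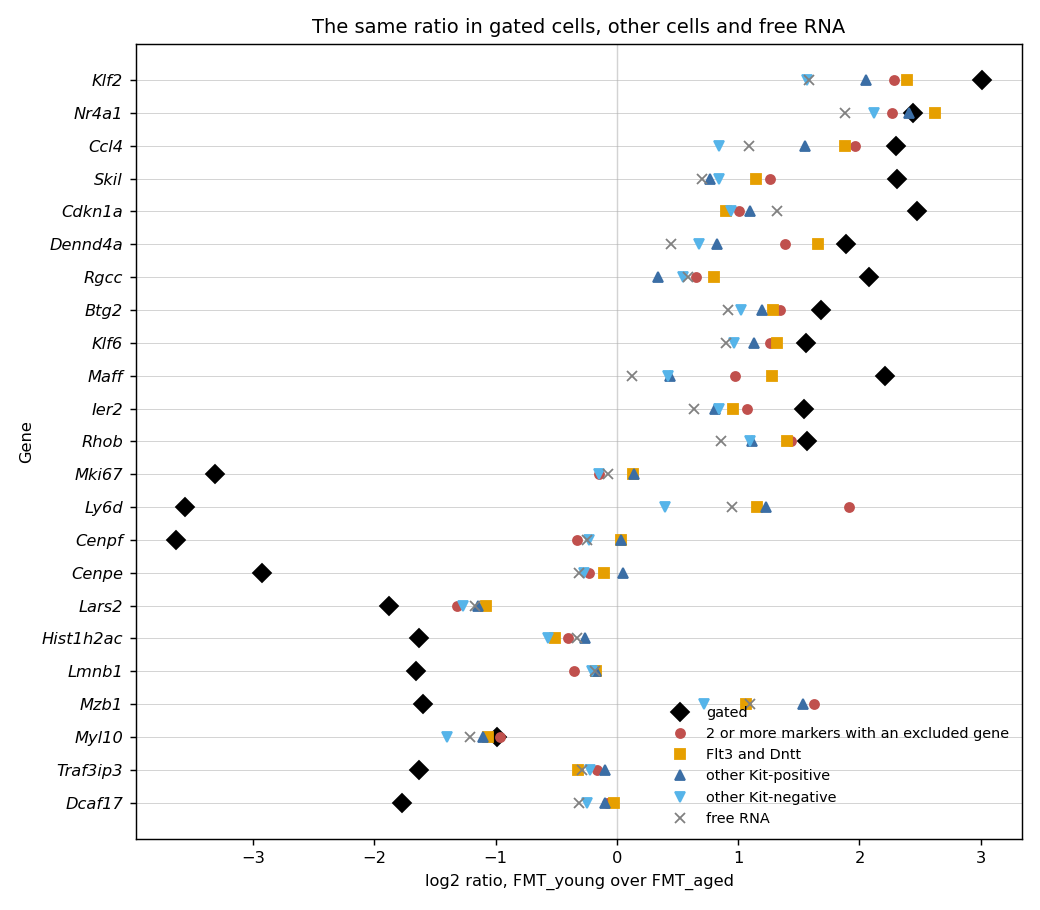
The log2 ratio of FMT_young over FMT_aged of genes named by the largest counting bounds, in gated cells (diamonds), in 4 other sets of cells, which overlap, and in free RNA from barcodes with under 100 UMIs. Genes of the upper part are to the right of 0 in every set, Myl10 and Lars2 are to the left in every set, and Mki67, Cenpf and Cenpe are far to the left in gated cells only among these sets.

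Beyond the immediate early list, genes higher in FMT_young included inhibitors of the cell cycle and of TGF-beta signalling. Cdkn1a, the p21 inhibitor of cyclin-dependent kinases, had 45 UMIs in 23 FMT_young cells and 13 UMIs in 11 FMT_aged cells (2.48, 1.56 to 3.49). Cdkn1c, the p57 inhibitor that keeps adult stem cells quiescent, had 72.0 CPM in FMT_young, against 29.4 in FMT_aged (1.29, 0.52 to 2.08), and after thinning was seen in 22.1% and 6.4% of gated cells, against 0.267% and 0.260% of cells rich in S100a8 and S100a9. Its unthinned shares were 29.1% and 15.2%. Of 23 genes of cyclin-dependent kinase inhibition and quiescence, 13 passed the count minimum, 8 of them higher (3 at least 2-fold) and 5 lower, with a median of 0.05. All genes together were 37.8% higher, 2.3% at least 2-fold, with a median of -0.10. In the quiescence list, the pocket protein gene Rbl2 (-0.64) and the forkhead factor gene Foxo3 (-0.50) stood lowest, with intervals that include 0. Skil, which represses Smad proteins, had 292 CPM in FMT_young, against 58.9 in FMT_aged (2.31, 1.84 to 2.80), Smad7, the inhibitory Smad, 322 and 154 (1.06), and Ski 87.1 and 41.2 (1.08), the last picked out after its value was seen. Of 25 TGF-beta and BMP genes 9 passed, 5 higher and 4 lower, with a median of 0.16, and Nrros, which tethers latent TGF-beta, was lower (47.3 and 82.4 CPM, -0.80, -1.52 to -0.12). Rgcc, a regulator of the cell cycle kinase Cdk1, had 199 and 47.1 CPM (2.08) and the Rab exchange factor gene Dennd4a 483 and 131 (1.89). When the cells with excluded genes were let in, Cdkn1a had a ratio of 1.08, Skil 1.35 and Rgcc 0.70, and with the gate on thinned cells they had 1.28, 1.47 and 1.19.

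Genes of inflammatory signals were uneven. Ccl4, a chemokine gene, had 661 CPM in FMT_young, against 134 in FMT_aged (2.30, 1.99 to 2.62), with 81 of its 349 FMT_young UMIs from 1 cell and a ratio of 2.21 without the top cell of each library. The other 8 of 9 TNF and NF-kB genes that passed, of 29 listed, ran from -0.53 for the caspase inhibitor Cflar to 0.82 for Nfkbiz, an atypical inhibitor of NF-kB (329 and 186 CPM, 0.51 to 1.14). Of 40 type I interferon response genes 14 passed, 3 higher and 11 lower (62.2% of all genes were lower), none 2-fold, with a median of -0.09 beside -0.10 for all genes. Ifi27 was lowest among those 14 (100.4 and 147 CPM, -0.55, -1.04 to -0.08), and Parp14 highest (0.38, -0.36 to 1.12). Per thinned cell the list had a median of 5 UMIs in each library, and in other Kit-positive cells its median ratio was -0.21. Interferon gamma response genes lay on both sides of 0. The class II genes H2-Eb1 (186 and 119 CPM, 0.64), H2-Aa (284 and 191 CPM, 0.57), H2-Ab1 (235 and 168 CPM, 0.48) and Cd74 (0.32), the last picked after its value was seen, were higher in FMT_young. The peptide transporter gene Tap2 (114 and 211 CPM, -0.89, -1.34 to -0.46) and the class I gene H2-D1 (1106 and 1268 CPM, -0.20) were lower. In all, 10 of 21 of these genes were higher and 11 lower, with a median of -0.07. Of 34 genes of microbial sensing 4 passed the count minimum, with ratios between -0.23 for the TNF receptor gene Tnfrsf1a and 0.37 for the interferon receptor gene Ifnar2, all with intervals that include 0.

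**Figure D5:**
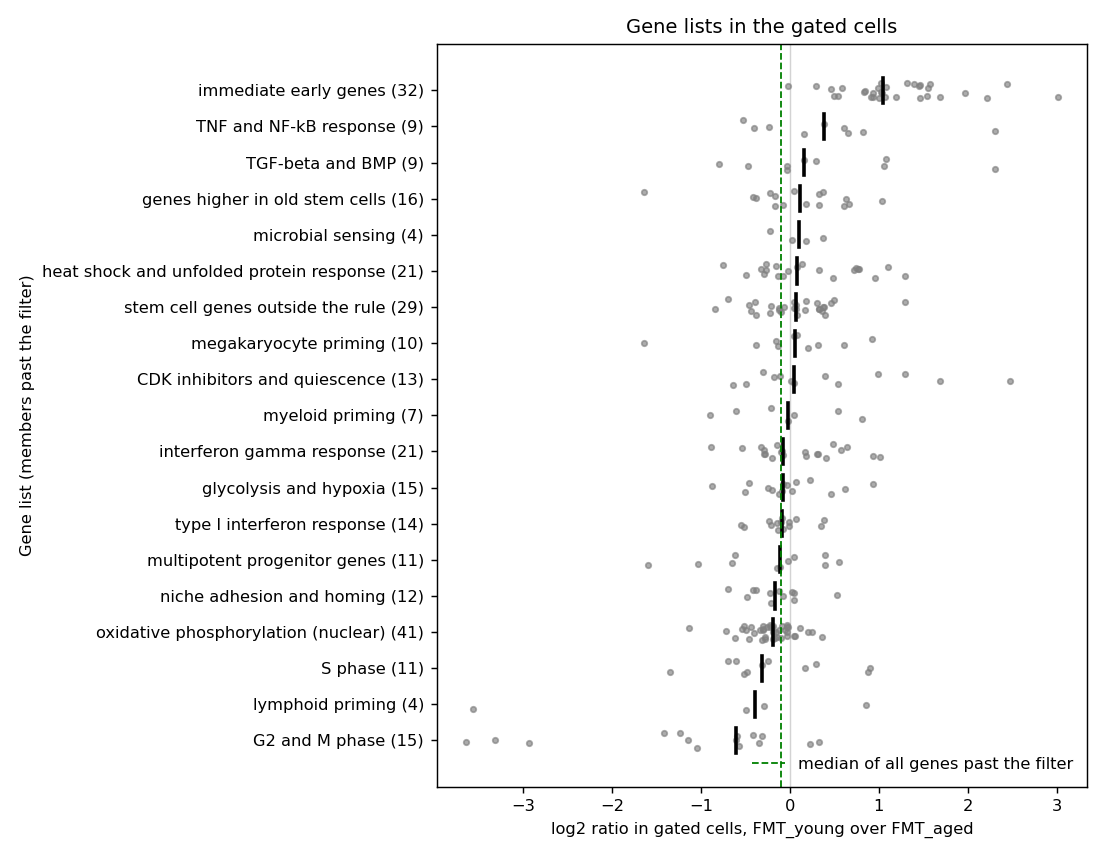
The log2 ratio of FMT_young over FMT_aged in gated cells of the genes that passed the count minimum in 19 lists with at least 4 such genes (grey points, number in brackets) with the median of the list (black bar) and the median of all 3302 genes (dashed line, -0.10). The immediate early list has its median at 1.05, and the other lists lie between -0.61 for G2 and M phase and 0.38 for TNF and NF-kB genes.

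Stem cell identity genes lay on both sides of 0. Of 40 outside the rule 29 passed the count minimum, 17 higher and 12 lower, with a median of 0.07. Over all genes 37.8% were higher and the median was -0.10. Of the 29 genes, 3 had an interval above 0 and 3 below 0. Gata2, a transcription factor gene that stem cells depend on, had 335 CPM in FMT_young, against 255 in FMT_aged (0.39, 0.10 to 0.68). Adgrg1, the adhesion receptor also called GPR56, had 676 and 918 CPM (-0.44, -0.63 to -0.26), and Txnip, a thioredoxin-binding protein gene, 331 and 454 (-0.46, -0.72 to -0.19). Kit had 250 and 325 CPM (-0.38, -0.69 to -0.07).

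As a list, genes of multipotent progenitors lay near all genes, with single members on both sides of 0. Of 18 genes 11 passed, 4 higher and 7 lower in FMT_young, with a median of -0.12, against 62.2% lower and a median of -0.10 over all genes. Flt3 had 47.3 CPM in FMT_young, against 96.5 in FMT_aged (-1.03, -1.74 to -0.37), and after thinning was present in 6.98% and 18.4% of gated cells, against 1.53% and 1.04% of cells rich in S100a8 and S100a9. Its unthinned shares were 17.4% and 33.6%. Cd34, picked out after its value was seen, had 172 and 265 CPM (-0.62, -0.99 to -0.26). Cd48, whose product is absent from the surface of stem cells and present on most progenitors, was below the count minimum with 1 UMI in FMT_young and 23 in 13 cells of FMT_aged (-3.84, -9.20 to -1.22). The myeloid factor gene Spi1 was higher (115 and 78.9 CPM, 0.55, 0.03 to 1.07).

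Genes of old stem cells and of the platelet lineage lay on both sides of 0. Of 45 genes known to be higher in stem cells of old mice 16 passed, 9 higher in FMT_young and 7 lower, with a median of 0.11. Among all genes 37.8% were higher and the median was -0.10. Tsc22d1, a leucine zipper gene induced by TGF-beta, had 498 CPM in FMT_young, against 243 in FMT_aged (1.04, 0.77 to 1.31) and Nupr1 125 and 78.9 (0.66, 0.15 to 1.18). Selp, the P-selectin gene that is among the best-known genes of old stem cells, had 102 and 67.1 CPM (0.61, 0.04 to 1.17). Vwf, which marks platelet-biased stem cells, had 9 UMIs in 7 FMT_young cells and 45 UMIs in 21 FMT_aged cells (-1.64, -2.85 to -0.59). The integrin gene Itga6 was at 125 and 167 CPM (-0.42, -0.86 to 0.01). Lmna, the lamin A gene, was below the count minimum with 22 UMIs in FMT_young and 4 in FMT_aged (3.14, 1.59 to 5.14) and is named after its value was seen. Megakaryocyte genes were 6 higher and 4 lower of 10 that passed, with the pleckstrin gene Plek at 151 and 80.1 CPM (0.92, 0.44 to 1.41). Per thinned cell, genes of old stem cells had a median of 4.5 UMIs in FMT_young and 3 in FMT_aged.

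Most G2 and M phase genes were lower in FMT_young, and single FMT_aged cells held much of the UMIs of the leading ones. Of 48 G2 and M phase genes 15 passed, 2 higher and 13 lower, 7 of them at least 2-fold, with a median of -0.61 and 10 intervals below 0. Over all genes 62.2% were lower, 1.7% at least 2-fold, with a median of -0.10, and 10.8% had an interval below 0. Mki67, the classic proliferation gene, had 8 UMIs in 6 FMT_young cells and 128 UMIs in 12 FMT_aged cells, 72 of these 128 from 1 cell (-3.31, -4.56 to -2.29). Cenpf, a kinetochore gene, had 3 and 60 UMIs (-3.64), with 28 of the 60 in 1 cell, and the kinetochore motor gene Cenpe 4 and 49 (-2.93), with 27 of the 49 in 1 cell. Without the top cell of each library the ratios of Mki67, Cenpf and Cenpe were -2.54, -3.31 and -2.77. In other Kit-positive cells the ratio of Mki67 was 0.14, and with the cells with excluded genes let into the gate it was -0.20. At least 3 of the listed genes per thinned cell were more frequent in FMT_young, at 47.7% (36.8 to 58.7%) against 36.8% (28.4 to 45.9%) in FMT_aged, which is the opposite order to the summed UMIs. The median of the list was -0.23 with at least 3 stem cell genes required, -0.24 with the cells with excluded genes let in and -0.19 with the gate on thinned cells. S phase genes were 4 higher and 7 lower of 11 that passed, near the share of all genes that were lower, with a median of -0.31. The helicase gene Mcm2 was at 20.8 and 53.0 CPM (-1.35, -2.45 to -0.37) and the histone mRNA binding gene Slbp at 121 and 65.9 CPM (0.88, 0.34 to 1.42). The nuclear lamina gene Lmnb1 (30.3 and 95.4 CPM, -1.65) and the histone gene Hist1h2ac (62.5 and 194 CPM, -1.64) were also lower in FMT_young. With the cells with excluded genes let in, these 2 ratios were -0.36 and -0.50.

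Some genes with large ratios rested on 1 cell. Ly6d, a gene of lymphoid progenitors, had 5 UMIs in FMT_young and 95 in FMT_aged (-3.56), of which 1 FMT_aged cell held 83, and its ratio was 1.54 with the cells with excluded genes let in and 2.02 with the gate on thinned cells. Mzb1, a chaperone gene of antibody-secreting cells, had 16 and 78 UMIs (-1.60), of which 1 FMT_aged cell held 74. Its ratio was 1.69 without the top cell of each library and 1.68 without the antibody-rich cells. Ighm had 2376 UMIs in FMT_young and 2111 in FMT_aged, of which 1 cell held 2138 and 1891. Lyz2, a lysozyme gene of myeloid cells, had 84 and 205 UMIs (-0.60), with 57 of the FMT_aged UMIs in 1 cell.

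Myl10 (ENSMUSG00000005474, chr5:136693146-136701094), the myosin light chain gene that was high in gated cells, was lower in FMT_young. It had 468 CPM in FMT_young, against 929 in FMT_aged (-0.99, -1.20 to -0.78), in 60 of 86 and 106 of 125 cells, and after thinning in 48.8% and 70.4% of gated cells against 0.867% and 1.64% of cells rich in S100a8 and S100a9. Its unthinned shares were 69.8% and 84.8%. The ratio was -0.97 in cells with stem cell genes and an excluded gene, -1.10 in other Kit-positive cells and -1.21 in free RNA. Transcripts mapping to Lars2, the gene of a mitochondrial leucyl-tRNA synthetase, had 104 and 384 CPM (-1.88, -2.32 to -1.47), and Gm42418, a gene model over ribosomal RNA sequence, 2287 and 6336 CPM (-1.47). Both belong to the list of 3 genes kept as ribosomal RNA locus reads, although Lars2 is itself a protein-coding gene. All 3 were lower in FMT_young in the gate. The signalling adaptor gene Traf3ip3 (22.7 and 70.6 CPM, -1.64) and the ubiquitin ligase adaptor gene Dcaf17 (15.1 and 51.8 CPM, -1.77) were lower in gated cells, and both had -0.10 in other Kit-positive cells.

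The medians of metabolic and stress gene lists lay between -0.19 and 0.08, against -0.10 for all genes. Of 41 nuclear genes of oxidative phosphorylation 35 were lower in FMT_young (62.2% of all genes were), with a median of -0.19 beside -0.10 for all genes and 11 intervals below 0. Sdhd, a subunit of complex II, was lowest of these (39.8 and 87.1 CPM, -1.13), and Uqcrq, a subunit of complex III, highest (0.36, -0.04 to 0.75). In other Kit-positive cells the median of these genes was -0.19 too. Of 15 glycolysis and hypoxia genes 6 were higher and 9 lower, with a median of -0.08, from Pdk1, the kinase that closes off pyruvate oxidation (-0.87, -1.73 to -0.08), to Cited2, a hypoxia-induced coregulator that stem cells need (451 and 237 CPM, 0.93, 0.65 to 1.21). Cited2 is also a member of the immediate early list. Heat shock genes and genes of the unfolded protein response divided evenly, with 11 of 21 higher and 10 lower and a median of 0.08. Dnajb1, a cochaperone gene, had 733 CPM in FMT_young and 341 in FMT_aged (1.10), and Hspa5, the chaperone of the endoplasmic reticulum, 1498 and 884 (0.76), while Hspa1b, an inducible heat shock gene, had 225 and 380 (-0.76) and Hsp90b1 265 and 372 (-0.49). Of 12 niche adhesion and homing genes 4 were higher and 8 lower, with Cd44, a hyaluronan receptor gene, at 0.53 (0.01 to 1.05) and Esam at -0.69 (-1.52 to 0.08).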

How the data were processed

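UMI counts per gene and barcode of both libraries were made with Cell Ranger against mm10, per the submitters' processing notes, and the file headers give Cell Ranger 3.1.0. The matrices were used as deposited, as raw counts of 31053 genes over 6794880 barcodes. The deposited feature and barcode lists, of unit other, hold names only. Per library 214982156 UMIs were counted in FMT_young and 207642851 in FMT_aged. Gene symbols and IDs are those of the files, coordinates are GENCODE (GRCm38), and promoter sequences RefSeq (GRCm38.p6).

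Cells were filtered and gated as the report states, with called doublets kept and a doublet score used as an alternative. UMIs were summed per library and cell set. Levels have exact Poisson intervals, ratios exact conditional binomial intervals and shares Clopper-Pearson intervals, all 95% and covering counting error only, and sums with 0 UMIs have 0.5 added for the ratio. With 1 library per group there is no test, and called means at least 2-fold. The computation was tested on simulated data. Thinning drew 2000 UMIs per cell, with at most 1500 cells per set and shallower cells left out, none of them gated. Named genes are the 12 in each direction by the interval bound nearest 0, the 15 leading identity genes, the 2 leading members each way of each list, and the genes of the rule. Exceptions are marked in the text, and a few genes are not reported here. Ribosomal protein genes, mitochondrially encoded genes and unnamed gene models were not named by that rule. The members and the 31 gene lists were chosen with earlier results of these data known, and 3 list genes are not in the files. The alternatives were other marker numbers, excluded genes, mitochondrial and UMI limits, doublet removal, each marker left out, other count minimums, centring on the median, means over cells, top cells left out and free RNA subtraction. Python 3.11.15, NumPy 2.4.6, SciPy 1.17.1, pandas 2.3.3, scikit-learn 1.9.0 and Matplotlib 3.10.9 were used.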

Additional observations from a re-analysis of the deposited data

How the results depend on the processing

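The immediate early median was above 0 under all 21 alternatives (0.81 to 1.15), as were the ratios of Klf2 and Nr4a1 under the 20 run for single genes. With the gate on cells thinned to 2000 UMIs, the share ratio was -0.0089, 32 genes were 2-fold lower, the immediate early median was 0.81, the G2 and M median -0.19, and the ratios of Ly6d and Mzb1 reversed to 2.02 and 5.18. With no gene excluded by the rule, 46 genes were 2-fold higher and 6 lower, the medians were -0.19 for stem cell genes, -0.30 for type I interferon, 0.90 for immediate early and -0.24 for G2 and M genes, and Ly6d and Mzb1 reversed to 1.54 and 1.54. With up to 1 UMI of excluded genes, chosen after seeing the data, 12 genes were lower, the G2 and M median was -0.085 and Mzb1 had 0.35. With at least 3 markers 108 genes were lower and the G2 and M median was -0.23. Without Hlf in the rule 133 were lower and that median was -0.25, and without Mecom 144 were lower and the type I interferon median was 0.13. At most 5% mitochondrial UMIs gave 90 lower, and a minimum of 10 UMIs with no CPM minimum 330 higher and 830 lower. Mzb1 had 1.68 without immunoglobulin-rich cells, an alternative also chosen after seeing the data, and 1.69 without top cells. The cause was not tested. The 86 and 125 gated cells limit genes of few UMIs. No paired analysis was possible because each group has 1 library.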

Other observations

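Among genes of the erythroid lineage, 3 of 15 passed the count minimum in gated cells. Car2, a carbonic anhydrase gene, was the most abundant, at 892 CPM in FMT_young and 863 in FMT_aged gated cells, against 45.5 and 53.6 CPM in other Kit-positive cells, and its ratio between the libraries was 0.05 (-0.12 to 0.22). The transferrin receptor gene Tfrc had 62.5 and 40.0 CPM (0.64, -0.09 to 1.38) and Hbb-bt, which encodes adult beta globin, had 66.3 and 43.6 CPM (0.61, -0.10 to 1.31), with intervals that include 0. Slc4a1 and Hba-a2 were at 0 in both libraries, and the erythroid factor gene Gata1 had 0 UMIs in FMT_young and 5 in FMT_aged.

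Of 17 myeloid genes 7 passed, 3 higher in FMT_young and 4 lower, against 37.8% higher and 62.2% lower over all genes. Prtn3, a protease gene of granulocyte precursors that the rule did not exclude, had 577 CPM in FMT_young and 559 in FMT_aged gated cells (0.05, -0.17 to 0.26). S100a8 had 140.1 and 80.1 CPM (0.81, 0.31 to 1.30). Of the lymphoid genes, Bcl11a had 280.2 and 344 CPM (-0.29, -0.59 to -0.0046) and the Ikaros gene Ikzf1 89 and 125 (-0.49, -1.02 to 0.02). Plac8, a gene of multipotent and later progenitors, stood at 343 CPM in FMT_young and 378 in FMT_aged gated cells, against 3553 and 3851 in other Kit-positive cells.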
